A study of Mus musculus with 6 samples.

Results

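Trhr, the gene for the receptor of thyrotropin-releasing hormone (TRH), and 8 further genes that handle TRH or thyroid hormone were examined in mouse neocortex at embryonic day 18.5. They are Trhr, Trhde, Thra, Thrb, Dio2, Dio3, Slc16a10, Crym and Hr, 9 of the 23420 genes in the deposited count table, found there by symbol. The set was chosen by the read counts of Trhr, which were higher in the mutant in these same libraries, so the difference between genotypes is given for all 9 as a description, with no p-value, and counts of the 9 past a threshold stand beside those over all genes. Neocortex of embryos labelled Tshz3 mutant was compared with neocortex of wild-type embryos, with 3 RNA sequencing libraries per genotype, and each library came from a separate pool of 3 to 4 embryos drawn from several litters. Tshz3 encodes a zinc finger transcription factor. The sources used here do not give the mutant allele, its zygosity, the strain or the sex of the embryos.

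TRH is a small peptide that, in the hypothalamus, starts the chain leading through pituitary thyrotropin to thyroid hormone release, and elsewhere in the brain it acts as a neuromodulator. Its receptor signals through Gq and G11 proteins and phospholipase C, and an ectopeptidase, the product of Trhde, breaks the peptide down outside the cell. Thyroid hormone enters brain cells through membrane transporters, is activated from T4 to T3 by the type 2 deiodinase and inactivated by the type 3 deiodinase, and acts through nuclear receptors that bind DNA with retinoid X receptors. In the fetal cortex this system influences neuron migration and differentiation.

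The libraries held 18569383 to 24147810 counted reads. The Tshz3 count did not check the genotype labels, since Tshz3 stood at 89.8 to 99.2 counts-per-million (CPM, scaled by library size and TMM factor) in the libraries labelled mutant and 78.7 to 89.3 CPM in wild type, and "mutant" below means the label. All 7 neocortical neuron markers examined were tested, with a summed level of 1935 to 2153 CPM in wild type and 2030 to 2218 CPM in the mutant. Of the hypothalamic markers, Rax had 0 reads in all libraries together, Hcrt 4, Pmch 6, Avp 7 and Oxt 10. Pomc had 120 and Nkx2-1 had 616, and the summed level of the 7 was 4.71 to 6.93 CPM. Most of that sum was Nkx2-1, with a mean of 4.92 CPM in wild type and 4.98 CPM in the mutant. The 5 choroid plexus markers summed to 32.5 CPM in mutant library 1 and 32.1 CPM in wild-type library 1, against 7.68 to 12.5 CPM in the other 4 libraries. The 5 meningeal markers were likewise highest in library 1 of each genotype, at 162 and 207 CPM, with 32.9 to 126 CPM elsewhere. The 7 striatal markers summed to 173 to 176 CPM in the mutant and 185 to 196 CPM in wild type, which did not overlap. The part of these differences in the results below was not tested. In whole tissue, a change in the number of cells that hold a transcript and a change in transcript per cell cannot be told apart.

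Among the 9 genes, Trhr and Crym were higher in the mutant by 2.59-fold and 1.45-fold, and the other 7 had log2 differences between −0.23 and 0.19. In edgeR's quasi-likelihood test with Benjamini-Hochberg adjustment over 14618 genes, 1 of the 9 passed an adjusted p of 0.05, namely Trhr, and 8 did not. The same test called 0.0752% of all tested genes, 0.0479% higher and 0.0274% lower. With libraries of the same number treated as pairs, Trhr was again the 1 gene of the 9 to pass, against 3.46% of all genes. The libraries of the genotypes did not overlap for Trhr, Thrb and Crym, 3 of 9 genes, all higher in the mutant, where 7.42% of all tested genes lay fully higher and 6.09% fully lower. With 1 library left out, the unpaired count was 1 without wild-type library 2 and 0 without any of the other 5. DESeq2 counted 2 of 9, Trhr and Crym, against 0.719% of all genes. The paired fit counted the same 2 without pair 1 or pair 2 and Trhr without pair 3, where it called 2.03%, 12.8% and 0.421% of all genes. Trhr chose the set, so nothing is read from these counts. The median log2 difference was 0.13 over the 9 genes and −0.01 over all genes tested.

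**Figure D1:**
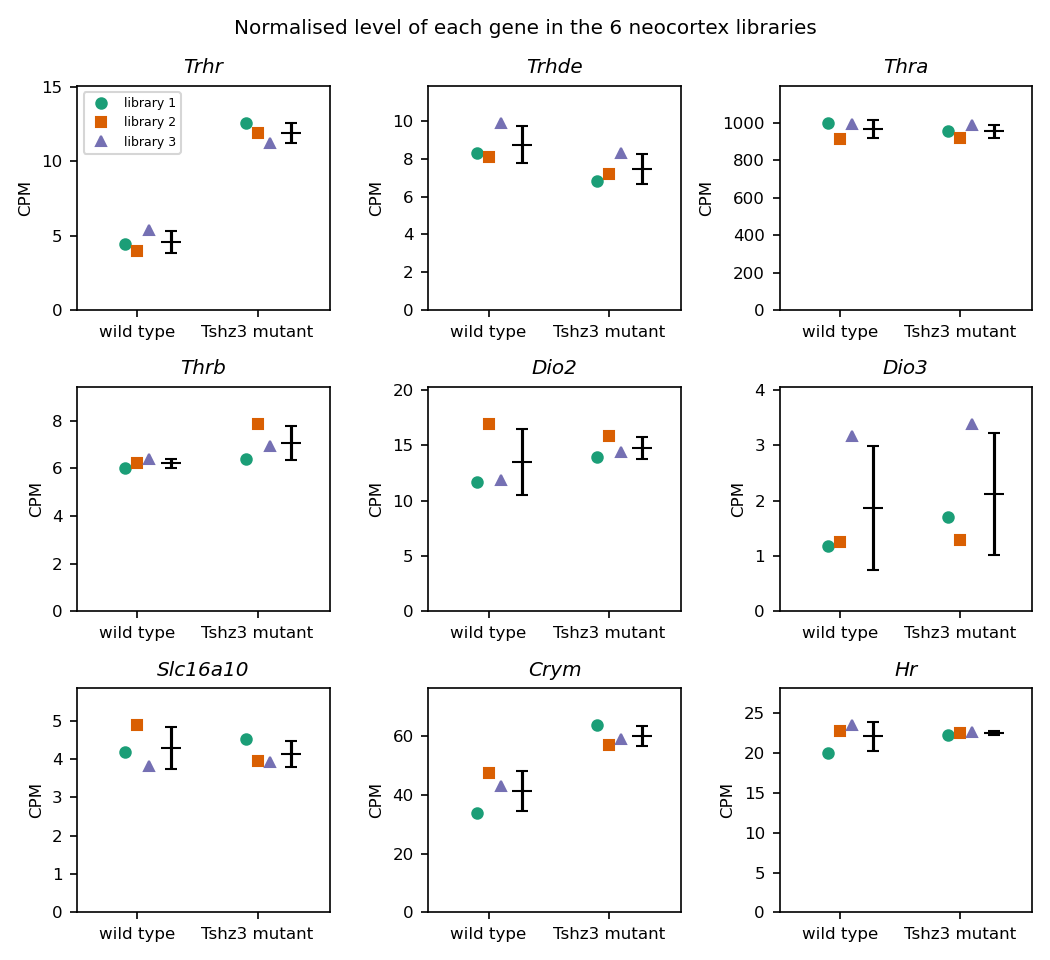
CPM of each of the 9 genes in each library (points, coloured and shaped by library number), with mean and SD (bar, n = 3) to the right of each genotype; every vertical axis starts at 0. Trhr separates the genotypes most widely, at 3.96 to 5.39 CPM in wild type and 11.2 to 12.5 CPM in the mutant, while Dio3 separates library 3 from libraries 1 and 2 in both genotypes.

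Trhr lies on chromosome 15 of GRCm38, from 44196135 to 44235912 on the plus strand (ENSMUSG00000038760.14), and its count covers the exons of the whole gene. In wild-type libraries 1, 2 and 3 it had 94, 82 and 99 reads, or 4.46, 3.96 and 5.39 CPM. In mutant libraries 1, 2 and 3 it had 266, 286 and 223 reads, or 12.5, 11.9 and 11.2 CPM. Every mutant library lay above every wild-type library, and the libraries with the smallest gap were both numbered 3.

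The genotype means of Trhr were 4.60 ± 0.725 CPM in wild type and 11.9 ± 0.653 CPM in the mutant (SD, n = 3 each), a log2 difference of 1.37 (SE 0.15). Within same-numbered libraries the log2 ratio was 1.49, 1.59 and 1.06 in pairs 1, 2 and 3. By size of increase Trhr ranked 9 among the 14618 genes tested. Its log2 difference stayed between 1.28 and 1.497 when any 1 library was left out.

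**Figure D2:**
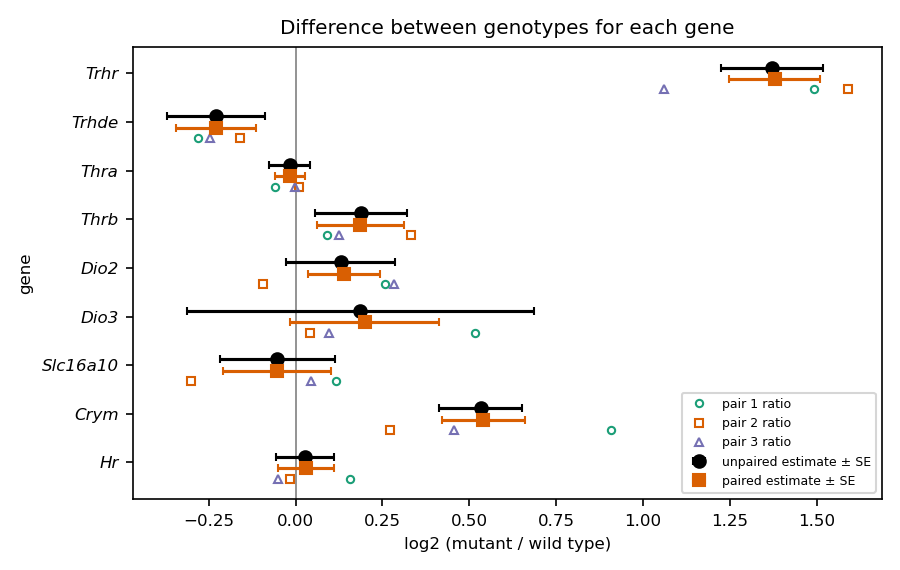
Log2 ratio of mutant to wild type for each gene, as the unpaired and the paired estimate with SE (n = 3 per genotype) and as the ratio within each same-numbered pair. Trhr lies at 1.37 and Crym at 0.53, with all 3 pairs above 0 for both; Thra, Dio2, Slc16a10 and Hr have pairs on both sides of 0.

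Trhde, on the minus strand of chromosome 10 from 114398823 to 114802307, encodes the peptidase that inactivates TRH. It stood at 8.30, 8.07 and 9.85 CPM in wild-type libraries 1 to 3 and at 6.83, 7.21 and 8.31 CPM in the mutant. Mutant library 3 lay within the wild-type range, so the genotypes overlapped, with a log2 difference of −0.23 (SE 0.14) and a negative ratio in all 3 pairs. Per kilobase of exon, Trhr and Trhde had similar levels in wild type, with a ratio of 1.06 ± 0.0602 (SD, n = 3). In the mutant that ratio was 3.25 ± 0.492, and its range of 2.73 to 3.70 did not overlap the wild-type range of 0.990 to 1.10. The ratio holds Trhr, whose rise chose the set, so nothing is read from its separation.

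Trh, which encodes the TRH precursor, is not one of the 9 genes and was near the limit of measurement, with 157 reads over all libraries. It was measured at 1.90, 1.26 and 1.42 CPM in wild type and at 0.990, 1.04 and 0.957 CPM in the mutant. These did not overlap, but the log2 difference of −0.61 (SE 0.25) had an edgeR adjusted p = 0.678, and 0.243 when paired. Trhr2, a second TRH receptor gene, had 27 reads in all and was not tested. Tshr, the thyrotropin receptor, was measured at 4.19 ± 1.24 CPM in wild type and 3.59 ± 0.0594 CPM in the mutant, while the thyrotropin subunit genes Tshb and Cga had 0 reads in every library.

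Of the 7 tested genes of the TRH and TSH system, 0 passed in edgeR with or without pairing and 0 in DESeq2, and at an unadjusted p under 0.05 there were 1 higher and 2 lower. Over all tested genes, 4.1% were higher and 3% lower at that unadjusted p. Pgpep1, a cytosolic peptidase able to cleave TRH, had 28.3 ± 1.31 CPM in wild type and 33.03 ± 1.06 CPM in the mutant (log2 difference 0.22, adjusted p = 0.487, paired 0.102). The prohormone convertase gene Pcsk2 had 63.6 ± 1.52 and 57.0 ± 2.58 CPM (log2 difference −0.16, adjusted p = 0.621, paired 0.135). Of the 7 tested genes, 1 lay fully higher in the mutant, Pgpep1, and 2 fully lower, Trh and Pcsk2. Over all tested genes, 7.42% lay fully higher and 6.09% fully lower.

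Among 15 genes through which the TRH receptor couples to calcium release and protein kinase C, 0 passed unpaired and 2 had an unadjusted p under 0.05, both lower, against 3% of all genes. DESeq2 called 1 of them lower, Prkcb, against 0.719% of all genes called in either direction. Paired, 1 rose and 2 fell, where the paired test called 1.97% of all genes higher and 1.49% lower. Prkcb, a protein kinase C gene, was at 148, 154 and 162 CPM in wild type and 112, 130 and 126 CPM in the mutant, without overlap, and fell by 0.33 on the log2 scale (SE 0.04, paired adjusted p = 0.000628, unpaired 0.252). Rgs4, an inhibitor of Gq signalling, fell by 0.31 (SE 0.06, paired adjusted p = 0.0117, unpaired 0.678).

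Itpr1, the calcium release channel opened by inositol trisphosphate, rose by 0.26 (SE 0.05, paired adjusted p = 0.00734, unpaired 0.854). Its genotypes overlapped, because library 2 of each genotype was high, at 135 CPM in wild type and 149 CPM in the mutant, while the other libraries held 90.9 to 92.6 and 115 to 116 CPM. Prkcb, Rgs4 and Itpr1 each passed without pair 1 or without pair 2, where the paired fit called 2.03% and 12.8% of all genes. Without pair 3 that fit called 0.421% of all genes and none of the 3 passed. Their paired adjusted p was then 0.0554 for Prkcb, 0.212 for Rgs4 and 0.220 for Itpr1. The G protein genes Gnaq and Gna11 had log2 differences of −0.02 and 0.05.

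The thyroid hormone receptor genes differed greatly in level and little between genotypes. Thra, which encodes the main receptor of fetal brain as well as a variant that binds no hormone, lies on chromosome 11 from 98740638 to 98769006. It was at 995, 913 and 990 CPM in wild-type libraries 1 to 3 and at 955, 920 and 989 CPM in the mutant. The ranges overlapped almost fully, with a log2 difference of −0.02 (SE 0.06) whose sign changed when mutant library 2 or wild-type library 1 was left out. The count joins both variants, and 263 bases of Thra exon, 5.7% of its length, lie opposite exons of Nr1d1, so reads there are uncertain because the strand setting of the counting is not given. Nr1d1 itself, a clock gene, had 12.2 ± 1.32 CPM in wild type and 9.39 ± 1.45 CPM in the mutant (adjusted p = 0.653, paired 0.0547).

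Thrb, the other receptor gene, lies on chromosome 14 from 17660261 to 18038090. It was at 6.02, 6.23 and 6.37 CPM in wild type and at 6.41, 7.84 and 6.95 CPM in the mutant. Every mutant library lay above every wild-type library, the closest pair being 6.41 and 6.37 CPM, and the log2 difference was 0.19 (SE 0.13). Thra exceeded Thrb per kilobase of exon by 250 ± 15.1-fold in wild type and 219 ± 26.8-fold in the mutant, and these ranges overlapped.

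Promoter sequence from RefSeq (GRCm38.p6, 250 bases before to 50 after each annotated start) was matched for Trhde, Thrb (with 2 starts), Dio2, Dio3 and Slc16a10, 5 of the 9 genes. Trhr, Thra, Crym and Hr had no entry. The receptor half-site AGGTCA was searched on both strands and lay in 1 of these 6 promoters, 184 bases before the upstream start of Thrb, whereas 16.3% of all 32851 promoters hold it. The paired site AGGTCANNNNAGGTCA, which contains the half-site, was in none of the 6 and in 0.0152% of all. The cAMP response element TGACGTCA, which reads the same on both strands, lay 95 bases before the start of Dio2 and in 1.79% of all promoters. Both distances are from the RefSeq start, which differs from the GENCODE gene end given here for each gene, so that the Dio2 window lies outside the GENCODE gene and the Thrb window inside it. The windows below show these matches in capitals because Dio2 and Thrb are the activating and receptor genes described here.
Dio2, minus strand, chr12:90739086-90739173: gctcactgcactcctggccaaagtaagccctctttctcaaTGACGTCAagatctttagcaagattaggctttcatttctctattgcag
Thrb, plus strand, chr14:17660736-17660821: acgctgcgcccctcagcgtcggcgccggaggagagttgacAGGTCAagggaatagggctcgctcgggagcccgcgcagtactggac
Each match is a description of the sequence.

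The deiodinase genes set the balance between active and inactive hormone, and neither was set apart by genotype. Dio2, on the minus strand of chromosome 12 from 90724552 to 90738438, encodes the activating enzyme, which in brain is found mainly in astrocytes. It was at 11.7, 16.9 and 11.9 CPM in wild type and at 14.0, 15.8 and 14.5 CPM in the mutant, so that wild-type library 2 lay above all mutant libraries and the other wild-type libraries below them. The log2 difference was 0.13 (SE 0.16). The 7 astrocyte and radial glia markers summed to 941 to 1084 CPM in wild type and 999 to 1084 CPM in the mutant. Most of that sum was Fabp7, with a mean of 627 CPM in wild type and 661 CPM in the mutant. The sum joins both cell types, so it gives no separate level for astrocytes.

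Dio3, the inactivating enzyme, is an imprinted gene on the plus strand of the same chromosome, from 110279068 to 110281097. It had 25, 26 and 58 reads in wild-type libraries 1, 2 and 3 and 36, 31 and 67 in the mutant, or 1.19, 1.26 and 3.16 CPM against 1.70, 1.29 and 3.37 CPM. Library 3 was the highest in both genotypes, and the spread within a genotype was 59.9% of the mean in wild type and 52.0% in the mutant, against 16.6% and 15.0% from read counting alone. The log2 difference was 0.19 (SE 0.50), and it was below 0 without mutant library 3 (−0.31) or wild-type library 1 or 2 (−0.06 and −0.03). The choroid plexus and meningeal markers did not share this order, since they were highest in library 1.

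At other genes of the imprinted Dlk1-Dio3 region, Dlk1 was highest in library 1 of each genotype, at 8.58 CPM in wild type and 5.75 CPM in the mutant, with 2.46 to 3.24 CPM elsewhere. The non-coding Meg3 stood at 2072 ± 76.8 CPM in wild type and 2146 ± 169.5 CPM in the mutant. Mirg, another non-coding gene of the region, was at 16.03, 19.3 and 12.4 CPM in wild type and 20.3, 20.6 and 24.1 CPM in the mutant, without overlap. Its log2 difference of 0.44 (SE 0.16) had an edgeR adjusted p = 0.610, and 0.188 when paired. Of the fits run, Mirg passed only in the paired fit without pair 2 (0.63, adjusted p = 4.2e-08). That fit called 12.8% of all genes. The ratio of Dio2 to Dio3 per kilobase of exon varied by library number, with 3.44, 4.70 and 1.31 in wild-type libraries 1 to 3 and 2.87, 4.28 and 1.495 in the mutant. Its genotype means were 3.15 ± 1.71 and 2.88 ± 1.39. Dio1, the liver and kidney deiodinase gene, had 0 reads.

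Slc16a10, the transporter MCT10 for thyroid hormone and aromatic amino acids, lies on the minus strand of chromosome 10 from 40033532 to 40142258. It was at 4.17, 4.88 and 3.81 CPM in wild type and 4.52, 3.96 and 3.93 CPM in the mutant, overlapping fully, with a log2 difference of −0.05 (SE 0.17) that turned positive without wild-type library 2 (0.05). Slco1c1, the T4 transporter of brain vessels, had 69.8 ± 5.48 CPM in wild type and 70.3 ± 4.33 CPM in the mutant (edgeR adjusted p = 0.990, paired 0.937).

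Of the 7 transport and binding genes, 0 passed unpaired and 0 in DESeq2. At an unadjusted p under 0.05 there was 1, lower, against 3% of all genes. Paired, 1 fell, against 1.49% of all genes. Slc3a2, the heavy chain shared by the Slc7a5 and Slc7a8 transporters, fell by 0.19 (SE 0.04, paired adjusted p = 0.0227, unpaired 0.483), and it did not pass without pair 1 (0.140) or pair 3 (0.321). Ttr, the carrier protein made by choroid plexus, was highest in library 1 of each genotype. It had 800, 115 and 219 CPM in wild type and 787, 182 and 143 CPM in the mutant.

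Crym encodes mu-crystallin, a cytosolic protein that binds T3, and is also used as a marker of corticospinal neurons. It lies on the minus strand of chromosome 7 from 120186380 to 120202111. It was at 33.9, 47.2 and 43.1 CPM in wild-type libraries 1 to 3, from 715, 978 and 791 reads, and at 63.6, 57.0 and 59.1 CPM in the mutant, from 1349, 1368 and 1173 reads. The lowest mutant library was above the highest wild-type library, both being numbered 2. The means were 41.4 ± 6.82 and 59.9 ± 3.35 CPM, and the log2 difference was 0.53 (SE 0.12), with 0.91, 0.27 and 0.46 in pairs 1, 2 and 3.

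The size of the Crym difference rested partly on the libraries numbered 1, and it was 0.36 without them, unpaired. Bcl11b, a neocortical marker of subcerebral neurons, rose by 0.15 in the paired edgeR fit (SE 0.04, adjusted p = 0.0478, unpaired 0.549). It did not pass without pair 1 (0.146) or pair 3 (0.452). The part of this marker in the Crym difference was not tested.

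Hr encodes hairless, a nuclear corepressor that binds thyroid hormone receptors and is itself a gene induced by thyroid hormone. It lies on chromosome 14 from 70552212 to 70573548. It was at 19.96, 22.8 and 23.5 CPM in wild type and at 22.2, 22.6 and 22.7 CPM in the mutant. All mutant libraries lay inside the wild-type range, and the log2 difference was 0.03 (SE 0.08), turning to −0.04 without wild-type library 1. The spread of Hr in the mutant, 0.967% of the mean, was below the 4.53% from read counting alone.

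Other genes known to respond to thyroid hormone in brain had log2 differences from −0.57 for Klf9 to 0.54 for Aldh1a3. Of 15 tested, 0 passed unpaired in edgeR and 0 in DESeq2, with 2 higher and 1 lower at an unadjusted p under 0.05 (4.1% and 3% of all genes), and the median log2 difference was −0.10 against −0.01 over all genes. Paired, 1 of 15 fell and 14 did not pass, where 1.49% of all genes fell. That gene was Klf9, a Krüppel-like transcription factor gene, at 14.3, 13.2 and 17.0 CPM in wild type and 8.81, 9.26 and 11.99 CPM in the mutant, without overlap. It fell by 0.57 on the log2 scale (SE 0.10, paired adjusted p = 0.00539, unpaired 0.444). In the paired fit Klf9 passed without pair 1 (0.0308) or pair 2 (1.7e-05), where 2.03% and 12.8% of all genes were called. It did not pass without pair 3 (0.126), where 0.421% were called. Reln, Sema7a and Nrgn, the most abundant of the list, had log2 differences of −0.10, −0.10 and −0.14, with edgeR adjusted p = 0.863, 0.791 and 0.954 (paired 0.261, 0.220 and 0.246). The neurotrophin gene Ntf3 had 10.2 ± 1.46 CPM in wild type and 13.1 ± 0.305 CPM in the mutant (log2 difference 0.37, adjusted p = 0.578, paired 0.0734).

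Receptor partners and coregulators were close between genotypes. Of 13 tested, 0 passed in either edgeR fit or in DESeq2 and 0 had an unadjusted p under 0.05. Their log2 differences ran from −0.14 for the corepressor subunit gene Tbl1xr1 to 0.06 for Gps2. Of 5 genes for deiodination and selenoprotein synthesis, 0 passed in any of these tests and 1, Pstk, had an unadjusted p under 0.05 (log2 difference −0.36, adjusted p = 0.693). The 6 genes of hormone synthesis in the thyroid gland summed to 3.37 to 5.55 CPM per library, and 2 reached the expression filter, of which 0 passed in these tests and 0 had an unadjusted p under 0.05. Over all 7 lists, 64 of 75 genes were tested; unpaired 0 passed, with 3 higher and 7 lower at an unadjusted p under 0.05, while DESeq2 called 1, and paired 1 rose and 4 fell. The shares over all genes were 7.09% at that unadjusted p and 0.719% in DESeq2, and in the paired fit 1.97% higher and 1.49% lower.

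**Figure D3:**
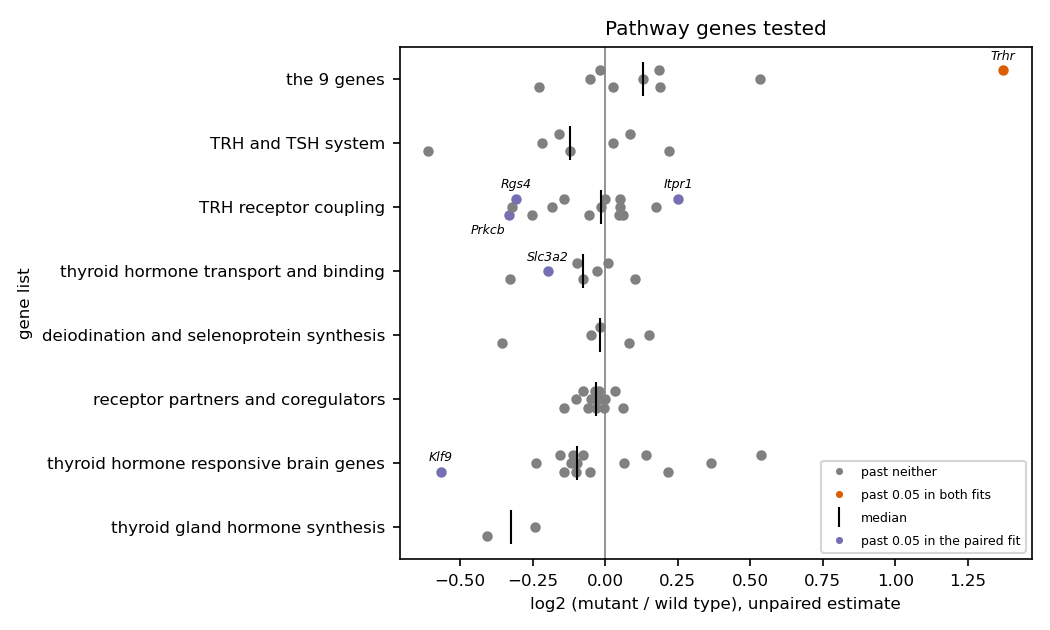
Log2 ratio of mutant to wild type (unpaired estimate) for each tested gene of the 9 and of 7 pathway lists, with the median of each list as a vertical mark and colour for the fits passed. Trhr at 1.37 stands beyond the other points, and the 5 genes that passed the paired but not the unpaired edgeR fit lie between −0.57 and 0.25.

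Ordered by level per kilobase of exon in wild type, Thra came first at 209 ± 9.998 CPM per kb and Crym next at 12.2 ± 2.01, followed by Hr at 3.19 ± 0.269 and Dio2 at 2.32 ± 0.511. Trhr was in place 5 at 1.15 ± 0.181 CPM per kb, then Trhde at 1.08 ± 0.121, Dio3 at 0.919 ± 0.551, Thrb at 0.839 ± 0.0236 and Slc16a10 at 0.583 ± 0.0738. Dio3 spread from 0.584 to 1.56 CPM per kb and overlapped Trhr, Trhde, Thrb and Slc16a10, and Trhr overlapped Trhde, so these neighbours in the order did not differ beyond their spread. Thrb lay below Trhr and Trhde and above Slc16a10 in every wild-type library. Hr and Dio2 touched, at 2.88 to 3.39 and 2.01 to 2.91 CPM per kb. In the mutant Trhr stood at 2.97 ± 0.163 CPM per kb, in place 4. It lay above Dio2 at 2.54 ± 0.169 and below Hr at 3.25 ± 0.0314, and these 3 did not overlap there. The rise of Trhr chose the set, so nothing is read from its change of place or from this separation.

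**Figure D4:**
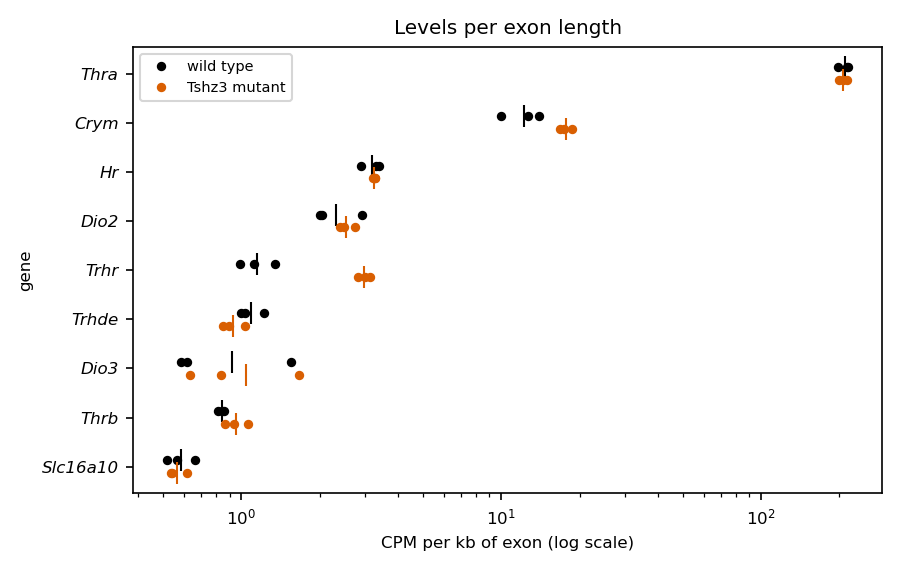
CPM per kilobase of exon (log axis) of each gene in every library, with the mean of each genotype as a vertical mark. Thra lies near 209 in wild type. Trhr, whose rise chose the set, lies at 1.15 in wild type, below Dio2, and at 2.97 in the mutant, above it.

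On chromosome 15, 11 other tested genes start within 2 Mb of the start of Trhr. Of these, 1 passed, Rspo2, a secreted enhancer of Wnt signalling whose start lies 1.03 Mb away. The edgeR test called 0.0752% of all tested genes unpaired and 3.46% paired. Rspo2 was already known to be higher when the region was chosen, so nothing is read from this count. Rspo2 was at 13.9, 13.9 and 13.5 CPM in wild type and 25.3, 25.3 and 22.2 CPM in the mutant (log2 difference 0.82, SE 0.09, edgeR adjusted p = 0.0300, paired 8.4e-05). The 3 tested genes whose starts lie between those of Rspo2 and Trhr had log2 differences of −0.14 for Eif3e, 0.01 for Emc2 and 0.06 for Tmem74. On the other side, Eny2 and Nudcd1, both 0.23 Mb from the start of Trhr, had −0.17 and 0.17, and none of these 5 passed (adjusted p = 0.549 to 0.989, paired 0.0635 to 0.941). The median of the 11 was 0.01.

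**Figure D5:**
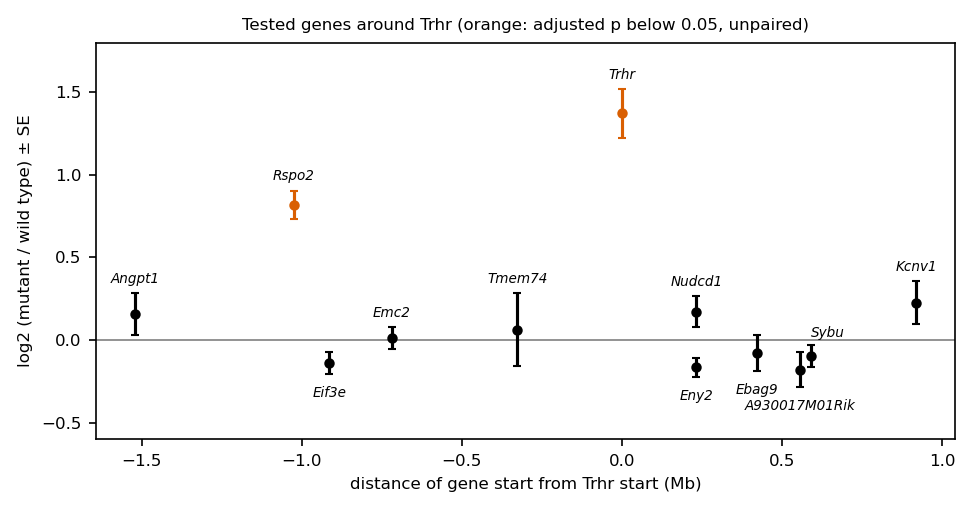
Log2 ratio of mutant to wild type with SE (unpaired estimate, n = 3 per genotype) for each tested gene, against the distance of its start from that of Trhr. Trhr at 1.37 and Rspo2 at 0.82 stand above the other 10 genes, which lie between −0.18 and 0.22.

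The genes whose log2 CPM followed Trhr most closely over the 6 libraries were Qpct, Trp53inp2, Cln3, Gm527 and Srsf6, with Pearson's r of 0.999, 0.995, 0.995, 0.994 and 0.992. These are the 5 highest of all tested genes, the points share genotype and library, and r ignores the size of a change. Qpct had a log2 difference of 0.14 and Trp53inp2 one of 0.27. Among the 9 genes, Crym and Thrb had the highest r with Trhr, 0.854 and 0.709, and Trhde the lowest, −0.605.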

How the data were processed

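The authors deposited unnormalized integer read counts by gene symbol for 6 libraries made with a stranded kit per the labels' protocols. HTSeq 0.5.3p9, Bowtie2 2.1.0, TopHat2 2.0.9, CASAVA 1.8.2 and build mm10 are listed, without roles, per the submitters' processing notes. The sources used here give neither strand setting nor annotation, so overlapping genes are uncertain. Columns were assigned by sample title, 0 sample columns were unused and 0 rows lacked a gene name.

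Counts were fitted with edgeR 4.0.16 in R 4.3.3 (quasi-likelihood, robust, TMM, default expression filter, two-sided, threshold 0.05), over 14618 genes. SE came from the F statistic. Alternatives were a replicate block, other scalings, no filter, DESeq2 1.42.0 and leaving out libraries, and the fit was tested on simulated data. Same-numbered libraries were taken as pairs because their deviations from group means correlated at 0.61, 0.51 and 0.47, each above 0.1. This pairing comes from the data, as the labels do not say what a number shares, and with 3 libraries per group it could arise without true pairs. Replicate libraries differed beyond sampling noise (chi-square per degree of freedom 7.13 to 23.1). Exon lengths and positions came from GENCODE release M21 (GRCm38, the same assembly as mm10), which may differ from the annotation counted.

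The 9 genes and all lists were chosen with earlier results of these data known. Named genes were the 9, overlapping or neighbouring genes, called genes of each list, and up to 3 further genes per list by level. Trh, Trhr2, Tshr, Tshb, Cga, Pgpep1, Slco1c1, Dio1, Pstk, Tbl1xr1, Gps2, Aldh1a3 and Ntf3 fell outside this rule and were chosen after their values were seen. Endothelial and thalamic marker sums were 82.5 to 113 and 54.9 to 66.5 CPM over the 6 libraries. Some results of named markers and transporters are not reported here.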

Additional observations from a re-analysis of the deposited data

How the results depend on the processing

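Without pairing, 7 genes were higher and 4 lower in the mutant over the whole table, among 1037 with an unadjusted p under 0.05. Upper-quartile scaling gave 9 and 8, no filter 11 and 9, DESeq2 59 and 43, and the replicate block 288 and 218. Leaving out 1 library gave 1 to 21 higher and 2 to 14 lower, the largest counts without wild-type library 2. Added after seeing the data, the block without pair 1, 2 or 3 gave 141, 1119 and 35 higher and 154, 755 and 27 lower, and leaving out both libraries numbered 1 without the block gave 1 and 1. Of the 9 genes, 1 was called higher with all libraries, 2 with DESeq2, 0 to 1 with 1 library left out, 2, 2 and 1 in the block without pair 1, 2 or 3, and 0 without both libraries numbered 1 (log2 difference of Trhr 1.31). The block changed no call among the 9 genes on all 6 libraries. Of the 75 pathway genes the block called 1 higher and 4 lower, and DESeq2 1 lower. The block without pair 1 gave 1 and 3 and without pair 2 gave 4 and 11, and 0 were called higher or lower with 1 library left out or in the block without pair 3. The sign of genes that never passed changed as follows, and the cause was not tested. Thra ran from −0.055 to 0.0097 with 1 library left out, and was positive without mutant library 2 (0.0097) or wild-type library 1 (0.0032), in the block without pair 1 (0.0053), without both libraries numbered 1 (0.0050) and within pair 2 (0.011). Dio2 was −0.093 within pair 2. Dio3 ran from −0.31 to 0.78, and was −0.31 without mutant library 3 and −0.06 and −0.03 without wild-type libraries 1 and 2. Slc16a10 ran from −0.13 to 0.051, and was 0.051 without wild-type library 2, 0.083 in the block without pair 2, and 0.12 and 0.044 within pairs 1 and 3. Hr ran from −0.042 to 0.071, and was −0.042 without wild-type library 1, −0.032 in the block without pair 1, −0.033 without both libraries numbered 1, and −0.015 and −0.050 within pairs 2 and 3. Dio3, Trh and Slc16a10 rest on few reads, which limits their precision.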
